A study of Macaca nemestrina with 15 samples.

Results

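Immune checkpoint receptors and ligands were followed in the blood cells of pig-tailed macaques before, during and after oral islatravir (ISL). The group held 10 genes, chosen by name from the deposited count table, which lists 28865 features. It comprised 8 receptors (*PDCD1*, *CTLA4*, *LAG3*, *HAVCR2*, *TIGIT*, *BTLA*, *CD160* and *ICOS*) and 2 ligands (*CD274* and *PDCD1LG2*). Each of the 10 matched 1 row, and all 10 were among the 12880 features that passed the filter on low counts. ISL is a nucleoside reverse transcriptase translocation inhibitor developed against HIV. The animals were 5 female pig-tailed macaques, each given ISL at 30 mg/kg by gavage under anesthesia every week for 12 weeks. RNA was sequenced from peripheral blood mononuclear cells (PBMCs), the lymphocytes and monocytes of blood, taken before treatment (labelled as control), at week 12 and at week 18 (both labelled as islatravir). By the study's methods, week 18 lay 6 weeks after the last dose. Each animal, here named by its identifier (Z15228, Z13076, Z15339, Z15303 and Z15408), gave 1 library per time point, 15 in all, and untreated animals were not part of the comparison, so time and treatment cannot be told apart.

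Checkpoint receptors sit mainly on T cells, natural killer cells and B cells, and they adjust how strongly these cells respond to antigen. Inhibitory receptors such as PD-1, the product of *PDCD1*, dampen signalling through the T-cell receptor and CD28 when they meet their ligands on antigen-presenting cells or other cells. They rise after activation and stay high on T cells that are stimulated for long periods, as in chronic infection, while ICOS is a costimulatory receptor of the same superfamily. In bulk RNA from PBMCs, fewer cells of a type and less RNA per cell cannot be told apart.

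Total counts per library were between 5610597 and 10379572 (median = 8871860), and the lowest totals were those of Z15303 at week 12 and week 18. The 10 checkpoint genes together held 678 to 1669 counts per library. Levels are given as CPM, the counts of a gene scaled to a common library size by edgeR's TMM method, and changes as log2 fold changes from edgeR's quasi-likelihood test with their standard errors (SE). CPM is not corrected for gene length, so levels are compared between libraries and not between genes. Judged by the dates in its name, the second library of an animal came 56 or 57 days and the third 84 days after its first, whereas the labels call them week 12 and week 18. The later libraries are thus 27 or 28 days apart by these dates, fewer than the 6 weeks between their labels. A figure legend of the study also gives a shorter interval after the last dose than its methods, close to these 27 or 28 days. That legend names an earlier week for the post-treatment sample. Which of the intervals holds was not settled by the files, and the time points are named as labelled. Z15339, Z15303 and Z15408 share these dates at each time point, and Z15228 and Z13076 have dates of their own.

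None of the 10 checkpoint genes passed an adjusted p of 0.05 in any of the 3 comparisons of time points. This held for edgeR with and without a block for the animal, for DESeq2's Wald test with and without the block, and for limma-voom. Of all 12880 features edgeR called 0% in each comparison without a block, and with the block 0.00776% at week 12 and week 18 vs. pre-treatment and 0% for week 18 vs. week 12. At an unadjusted p under 0.05, edgeR without a block counted 1 of the 10 genes at week 12 (background 1.61% of features), 1 at week 18 (1.69%) and 0 between week 12 and week 18 (0.505%). With the block the counts were 2 (4.69%), 2 (5.85%) and 1 (2.17%). The gene counted without a block was *PDCD1LG2* at both time points, joined with the block by *BTLA* at week 12 and *TIGIT* at week 18, and the gene counted between week 12 and week 18 was *PDCD1*. The median log2 fold change over the 10 genes was −0.18 at week 12, −0.20 at week 18 and 0.00 for week 18 vs. week 12.

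**Figure D1:**
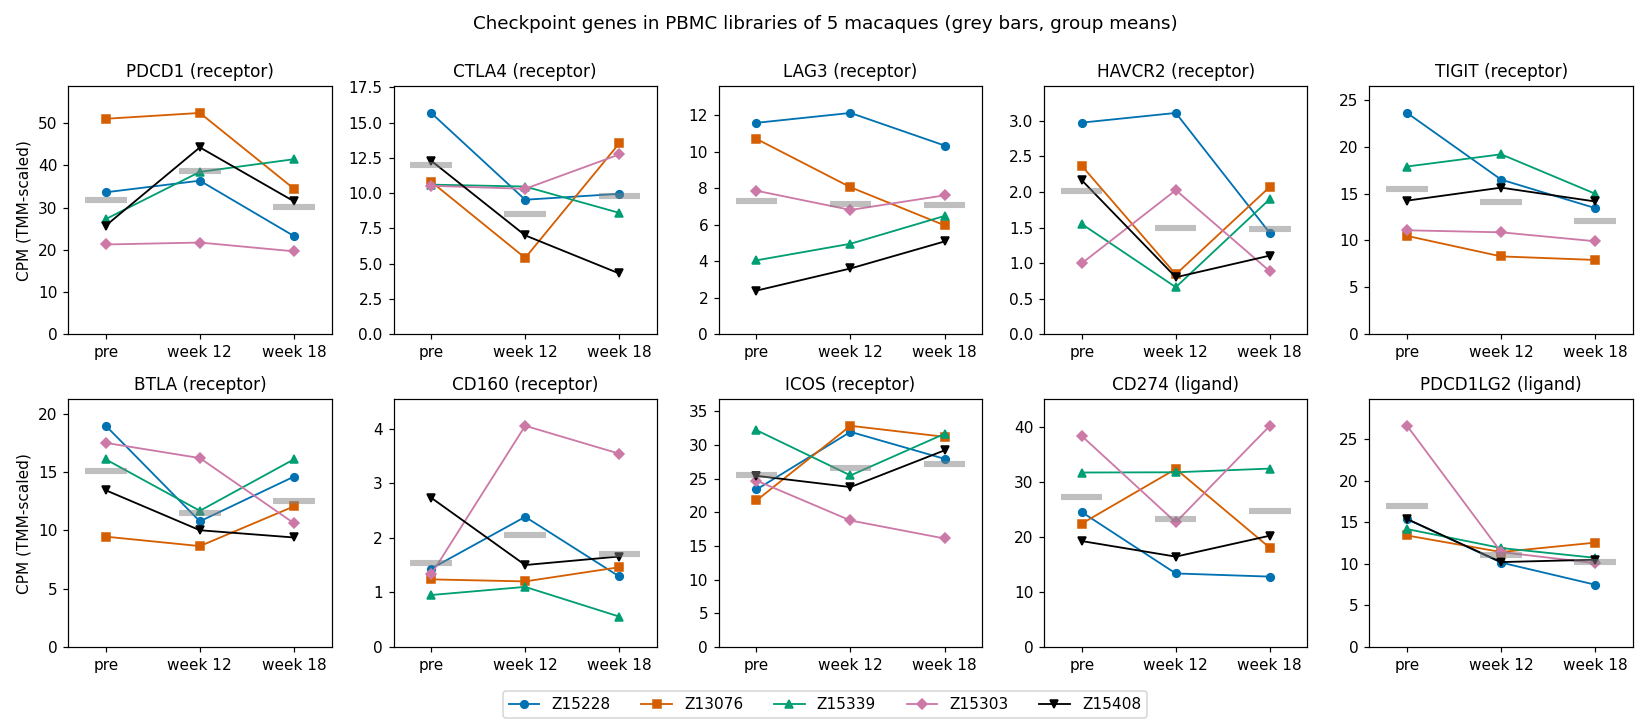
TMM-scaled CPM of each checkpoint gene (vertical axis, starting at 0) at the 3 time points (horizontal axis), with 1 line per animal and grey bars for the group means of 5 libraries. The lines of *PDCD1LG2* all run down from pre-treatment to week 12, where the 5 animals lie between 10.2 and 11.9 CPM, while those of *LAG3* or *ICOS* cross.

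*PDCD1LG2* encodes PD-L2, a ligand of PD-1 found mainly on dendritic cells, monocytes and macrophages, and it had the smallest p of the 10 genes at both time points. In the order Z15228, Z13076, Z15339, Z15303 and Z15408, which is kept for all values by animal, its level was 15.4, 13.4, 14.2, 26.6 and 15.4 CPM pre-treatment, 10.2, 11.4, 11.9, 11.4 and 10.2 at week 12, and 7.50, 12.6, 10.7, 10.1 and 10.5 at week 18. Every library taken before treatment thus lay above every later library. The group means were 17.0 ± 5.43 CPM pre-treatment, 11.0 ± 0.789 at week 12 and 10.3 ± 1.82 at week 18 (n = 5, ± SD). The spread before treatment came largely from Z15303, whose 26.6 CPM stood apart from 13.4 to 15.4 CPM in the other 4 animals. Non-overlap of the time points was seen for 2 of the 10 checkpoint genes at week 12, against 0.28% of all features, and for 1 at week 18, against 0.334%.

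At week 12, *PDCD1LG2* had a log2 fold change of −0.62 (SE 0.19, unadjusted p = 0.00515, adjusted p = 1 in edgeR), which ranked 8 by p among the 12880 features. Blocked by animal, the value was −0.59 (95% confidence interval −0.96 to −0.22, adjusted p = 0.568 in edgeR), a level 33.7% lower. At week 18 the value was −0.72 (SE 0.19, unadjusted p = 0.00178, adjusted p = 1 in edgeR), and with the block −0.70 (95% confidence interval −1.07 to −0.32, adjusted p = 0.26 in edgeR). The gene was lower in 5 of 5 animals in both comparisons, which share the pre-treatment libraries. Within animals the smallest differences were those of Z13076, −0.23 at week 12 and −0.09 at week 18 on the log2 scale. The largest were those of Z15303, −1.20 and −1.38. Without Z15303, edgeR gave log2 fold changes of −0.41 at week 12 and −0.49 at week 18. In the 3 animals that share dates the values with the block were −0.69 and −0.78, and in the other 2 animals −0.43 and −0.55. Between week 12 and week 18 the difference was −0.10 (SE 0.20), within the spread of the replicates.

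Marker genes of the cells that carry PD-L2 were measured in the same libraries. Of 10 listed monocyte markers 9 were tested, and their summed level lay between 2241 and 4290 CPM pre-treatment, 2293 and 3648 at week 12, and 2599 and 5450 at week 18. It was lower in 3 of 5 animals at week 12 and in 1 of 5 at week 18. Relative to this sum, *PDCD1LG2* was lower in 4 of 5 animals at week 12 (mean log2 difference −0.39 ± 0.56, SD, n = 5) and in 5 of 5 at week 18 (−0.87 ± 0.42). Among the 9 single monocyte markers, fold changes were negative for 7 at week 12 and for 3 at week 18. Between pre-treatment and week 18 the mean of *CD14* went from 523 to 784 CPM and that of *LYZ* from 1054 to 1232. The mean of *MS4A7* went from 138 CPM to 102 at week 12 and 99.9 at week 18. How far the values relative to the sum rest on single markers was not tested. Of 8 listed dendritic cell markers 7 were found by symbol and 6 were tested. The summed level of the 7 was 63.2 to 214 CPM pre-treatment, 62.1 to 156 at week 12 and 59.7 to 172 at week 18. That sum was lower in 5 of 5 animals at week 12 (−0.37 ± 0.20) and in 4 of 5 at week 18 (−0.08 ± 0.35). It mainly followed *CD1C*, which held a mean of 69.9 of its 96.9 CPM at week 12. Which cells held *CD1C* was not tested, so the fall of the sum is not one of dendritic cells alone. Of the 6 tested dendritic cell markers, 5 had a negative fold change at week 12, but only *CD1C* was lower in 5 of 5 animals. At week 18, 3 of the 6 were negative and 0 were lower in 5 of 5. B-cell markers, described with *BTLA*, were lower in 5 of 5 animals at both later time points (−0.77 ± 0.27 and −0.76 ± 0.34), as *PDCD1LG2* was. The part of these cells in the level of *PDCD1LG2* was not tested. *CLEC9A*, *CLEC10A* and *XCR1*, which mark dendritic cell subsets, were measured at a few counts in some libraries, with *XCR1* at 0 counts in at least 1.

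*CD274* encodes PD-L1, the more widely expressed ligand of PD-1, which is induced by interferons on many cell types. Its level was 24.5, 22.4, 31.7, 38.3 and 19.3 CPM pre-treatment, 13.4, 32.4, 31.8, 22.7 and 16.4 at week 12, and 12.8, 18.0, 32.4, 40.2 and 20.2 at week 18. The groups overlapped at all time points, and the animals went different ways. Z15228 was lower at both later time points (within-animal log2 differences −0.86 and −0.92), Z15303 was lower at week 12 and back at its first level at week 18 (−0.75 and 0.07), and Z15339 stayed between 31.7 and 32.4 CPM. edgeR's log2 fold changes were −0.23 at week 12 and −0.14 at week 18 (SE 0.31 and adjusted p = 1 in edgeR for both). Blocked by animal, the 95% confidence intervals were −0.66 to 0.17 and −0.62 to 0.21. Leaving out 1 animal moved the value without a block at week 12 to −0.05 (without Z15303), −0.11 (without Z15228) or −0.44 (without Z13076), and at week 18 to −0.01 without Z15228.

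*PDCD1* was measured at 33.6, 51.1, 27.3, 21.3 and 25.8 CPM pre-treatment, 36.4, 52.4, 38.5, 21.7 and 44.3 at week 12, and 23.3, 34.5, 41.5, 19.7 and 31.5 at week 18. At week 12 it was higher in 5 of 5 animals, as were 2.24% of all features, but in Z13076 and Z15303 the within-animal differences were only 0.04 and 0.03 on the log2 scale. The largest was 0.78, in Z15408. For all 5 animals together the value was 0.29 (SE 0.26, adjusted p = 1 in edgeR), and with the block 0.28 (95% confidence interval −0.05 to 0.61, adjusted p = 0.982 in edgeR). Without Z15408 these values were 0.17 and 0.16. From week 12 to week 18, 4 of 5 animals were lower, with a log2 fold change of −0.35 with the block (SE 0.16, unadjusted p = 0.0417, adjusted p = 1 in edgeR). Relative to the summed chains of CD3, the T-cell receptor complex that marks T cells, *PDCD1* at week 18 was lower than at week 12 in 5 of 5 animals (−0.30 ± 0.18, SD, n = 5). The CD3 chains themselves were lower in 2 of the 5. Against pre-treatment, *PDCD1* relative to CD3 was higher in 4 of 5 animals at week 12 (0.18 ± 0.31) and lower in 4 of 5 at week 18 (−0.11 ± 0.35). The share of all features that moved in 5 of 5 animals relative to CD3 was not counted. Without this reference, *PDCD1* at week 18 and pre-treatment differed by −0.08 (SE 0.26), with 3 animals lower and 2 higher.

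*CTLA4* encodes the inhibitory receptor that competes with CD28 for CD80 and CD86 and that regulatory T cells hold constitutively. The 5 animals had 15.7, 10.8, 10.6, 10.5 and 12.3 CPM pre-treatment, 9.54, 5.41, 10.5, 10.3 and 7.01 at week 12, and 9.96, 13.5, 8.61, 12.7 and 4.31 at week 18. All 5 were lower at week 12, Z15339 and Z15303 by −0.02 and −0.03 on the log2 scale and the other 3 by −0.97 to −0.70. The time points did not overlap on the TMM scale, by a margin of 10.47 against 10.53 CPM, but did overlap with library size as the only scaling, where the highest value at week 12 was 10.39 and the lowest before treatment 10.29. The log2 fold change was −0.49 (SE 0.27, unadjusted p = 0.0877, adjusted p = 1 in edgeR), and −0.51 with the block (SE 0.24, unadjusted p = 0.0508, adjusted p = 0.982 in edgeR). At week 18 the animals had separated, with Z13076 and Z15303 above their pre-treatment level and Z15408 at −1.46 on the log2 scale, and the log2 fold change was −0.29 (SE 0.27), or −0.09 without Z15408. The regulatory T-cell markers, all 5 of which were tested, summed to 41.4 to 52.0 CPM pre-treatment, 43.6 to 52.4 at week 12 and 43.7 to 59.6 at week 18, lower in 1 of 5 animals at each later time point. The single markers went both ways. At week 12 *FOXP3* and *IL2RA* were each higher in 4 of 5 animals, *IKZF2* and *IKZF4* each lower in 4 of 5, and *RTKN2* lower in 3 of 5. The part of regulatory T cells in the level of *CTLA4* was not tested.

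*BTLA* encodes an inhibitory receptor of B cells and T cells that binds TNFRSF14. Before treatment it had 19.0, 9.47, 16.1, 17.5 and 13.4 CPM, at week 12 10.8, 8.66, 11.7, 16.2 and 10.02, and at week 18 14.6, 12.1, 16.1, 10.6 and 9.40. The groups overlapped, with 9.47 to 19.0 CPM pre-treatment and 8.66 to 16.2 at week 12. Within animals, all 5 were lower at week 12, as were 3.46% of all features. With *PDCD1LG2* and *CTLA4* this made 3 of the 10 genes lower in 5 of 5 animals. At week 12 edgeR gave −0.40 (SE 0.22, unadjusted p = 0.0831, adjusted p = 1 in edgeR), and −0.40 with the block (95% confidence interval −0.76 to −0.03, adjusted p = 0.978 in edgeR). At week 18 it was −0.26 (SE 0.22), or −0.14 without Z15303, with 3 animals lower and 2 higher. Of 10 listed B-cell markers 9 were tested and all 9 had an unadjusted p under 0.05 and a negative fold change with the block at both time points. The sum of all 10 listed B-cell markers ranged from 307 to 1083 CPM pre-treatment, 188 to 578 at week 12 and 227 to 488 at week 18. Within animals it was lower in 5 of 5 at each later time point. Relative to core B-cell markers, *BTLA* was higher in 4 of 5 animals at week 12 (0.38 ± 0.37) and at week 18 (0.53 ± 0.41). The part of B cells in the level of *BTLA* was not tested.

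*TIGIT* encodes an inhibitory receptor of T cells and natural killer cells that binds PVR and NECTIN2. It was at 23.6, 10.5, 17.9, 11.1 and 14.2 CPM pre-treatment, 16.5, 8.30, 19.2, 10.9 and 15.6 at week 12, and 13.4, 7.92, 14.98, 9.92 and 14.2 at week 18. At week 18 it was lower than before treatment in 5 of 5 animals (3.49% of all features), and also lower than at week 12 in 5 of 5 (2.87%), but the differences ranged from −0.80 in Z15228 to −0.01 in Z15408. The log2 fold change at week 18 was −0.35 (SE 0.27, unadjusted p = 0.207, adjusted p = 1 in edgeR), and −0.34 with the block (95% confidence interval −0.65 to −0.03, unadjusted p = 0.0347, adjusted p = 0.825 in edgeR). At week 12 it was −0.13 (SE 0.27), with 3 animals lower and 2 higher. Over the fits that left out 1 animal each, the log2 fold change at week 18 lay between −0.44 and −0.18, the latter without Z15228.

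*LAG3* encodes a CD4-like inhibitory receptor that binds MHC class II. Levels were 11.6, 10.7, 4.05, 7.87 and 2.39 CPM pre-treatment, 12.1, 8.06, 4.96, 6.81 and 3.61 at week 12, and 10.3, 5.97, 6.48, 7.61 and 5.09 at week 18. The means of the time points differed by less than the spread between animals (7.32 ± 4.03, 7.11 ± 3.28 and 7.10 ± 2.03 CPM, SD, n = 5), while the range between animals narrowed from 2.39 to 11.6 CPM pre-treatment to 5.09 to 10.3 at week 18. This narrowing was not tested. edgeR's log2 fold changes were −0.04 and −0.05 at the later time points (SE 0.40 for both), and with the block it had the other sign, 0.00 (95% confidence interval −0.45 to 0.46) and 0.08 (95% confidence interval −0.39 to 0.56).

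*ICOS* encodes the inducible costimulator of activated and follicular helper T cells. In the 5 animals it was at 23.4, 21.8, 32.2, 24.7 and 25.4 CPM pre-treatment, 31.9, 32.8, 25.5, 18.8 and 23.7 at week 12, and 27.9, 31.2, 31.6, 16.1 and 29.2 at week 18. At week 12, Z15228 and Z13076 were higher than before and the 3 animals that share dates were lower. Its changes on the log2 scale were 0.06 at week 12 and 0.10 at week 18 (SE 0.19 for both), and the 95% confidence intervals with the block, −0.29 to 0.37 and −0.26 to 0.40, were among the narrowest of the 10 genes.

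*HAVCR2*, which encodes TIM-3 of T cells, natural killer cells and monocytes, and *CD160*, which encodes a receptor of natural killer and CD8 T cells that also binds TNFRSF14, were measured at low depth. *HAVCR2* had 5 to 30 counts per library and *CD160* 5 to 24. For 5 counts the exact Poisson 95% interval was 1.62 to 11.7 and for 30 counts 20.2 to 42.8, which covers counting error only. *HAVCR2* was at 2.97, 2.37, 1.55, 0.997 and 2.17 CPM pre-treatment, 3.11, 0.842, 0.662, 2.03 and 0.802 at week 12, and 1.42, 2.07, 1.90, 0.885 and 1.11 at week 18. Its log2 fold changes of −0.44 and −0.43 had an SE of 0.45 each, and animals went both ways. *CD160* was at 1.44, 1.24, 0.954, 1.33 and 2.73 CPM pre-treatment, 2.38, 1.203, 1.10, 4.05 and 1.503 at week 12, and 1.29, 1.46, 0.559, 3.54 and 1.66 at week 18. Z15303 had the highest level of the 5 animals at both later time points, and the groups overlapped. Its log2 fold changes were 0.38 and 0.11 at the later time points (SE 0.48 and 0.49). With the block the 95% confidence intervals at week 12 were −1.39 to 0.37 for *HAVCR2* and −0.48 to 1.11 for *CD160*. Their width holds the spread of the animals' changes as well as counting error, and the part of depth in it was not tested.

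**Figure D2:**
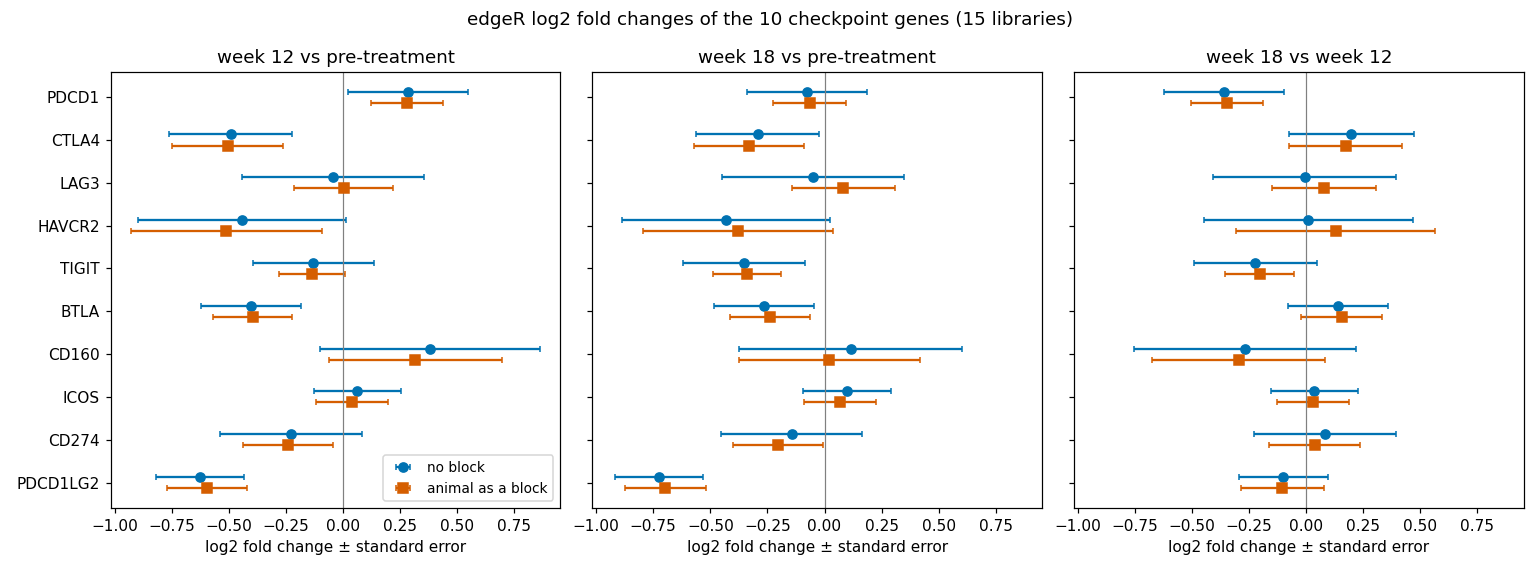
edgeR log2 fold changes (horizontal axis) with their standard errors (bars) for the 10 checkpoint genes, one panel per comparison, without a block (circles) and with the animal as a block (squares). *PDCD1LG2* lies at −0.62 and −0.72 in the first 2 panels without a block, and *HAVCR2* and *CD160*, measured at 5 to 30 counts, have the widest bars.

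The receptors were then set against their ligands inside each library, as the difference between their log2 CPM. This value does not depend on how a library was scaled. Of 10 listed receptor and ligand pairs 8 could be formed from the symbols in the table, and they were compared at week 12 and week 18 with pre-treatment, which made 16 tests. With 5 animals the smallest p that a two-sided exact sign-flip test can give is 0.0625, so no pair could pass 0.05. The ratio of *PDCD1* to *PDCD1LG2* at week 12 was higher than before treatment in 5 of 5 animals, by 0.70, 0.27, 0.74, 1.23 and 1.36 on the log2 scale. Its direction follows from the single genes, since *PDCD1* was higher and *PDCD1LG2* lower in 5 of 5 animals. The ratio is therefore no result separate from these changes. Its mean change was 0.86 ± 0.44 (SD, n = 5, exact sign-flip p = 0.0625, adjusted p = 0.4). At week 18 it was higher in 4 of 5 animals (0.62 ± 0.67, exact sign-flip p = 0.125, adjusted p = 0.4), with Z13076 at −0.47. Against its other ligand, *CD274*, the ratio of *PDCD1* was higher in 4 of 5 animals at week 12 (0.55 ± 0.62) and in 3 of 5 at week 18 (0.15 ± 0.36).

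The ratio of *CTLA4* to *CD86* at week 12 was lower in 5 of 5 animals (−0.34 ± 0.39, SD, n = 5, exact sign-flip p = 0.0625, adjusted p = 0.4), but in Z15339 by only −0.02 and in Z15408 by −1.01. Without Z15408 the mean was −0.17. At week 18 the ratio was lower in 3 of 5 animals (−0.28 ± 0.72). To *CD80* it was lower in 3 of 5 animals at week 12 (−0.57 ± 0.91) and in 3 of 5 at week 18 (−0.45 ± 0.79). For *BTLA* and *TNFRSF14* the ratio was lower in 4 of 5 animals at week 12 (−0.36 ± 0.42) and in 3 of 5 at week 18 (−0.23 ± 0.43). For *TIGIT* and *NECTIN2* it was −0.02 ± 0.56 at week 12 and −0.58 ± 0.56 at week 18, lower in 4 of 5 animals. The ratio of *TIGIT* to *PVR* was −0.03 ± 0.39 and −0.24 ± 0.74 at these time points, and that of *CD160* to *TNFRSF14* 0.31 ± 0.92 and 0.04 ± 0.81. Of the 16 means, those of *PDCD1* to *PDCD1LG2* at week 12 and of *TIGIT* to *NECTIN2* at week 18 were the only ones larger than their SD. The former combines the changes of the single genes described above.

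**Figure D3:**
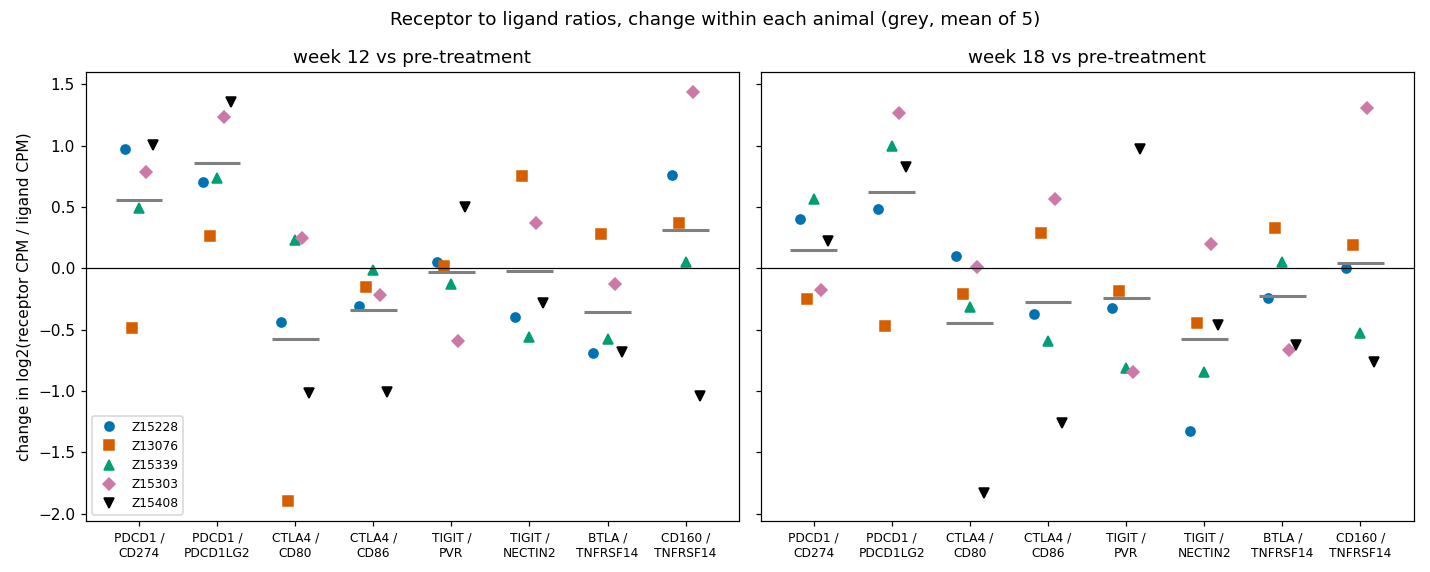
Change in the log2 ratio of receptor CPM to ligand CPM (vertical axis) from pre-treatment to week 12 (left) and to week 18 (right) for 8 pairs, with 1 point per animal and a grey line at the mean of 5. *PDCD1* to *PDCD1LG2* at week 12 has its 5 points between 0.27 and 1.36, and *CTLA4* to *CD86* has its 5 between −1.01 and −0.02.

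Of 12 counterparts listed for the receptors, 9 were found by symbol and 7 were tested, and none passed the adjusted p in a comparison of time points with or without the block. *ICOSLG*, *LGALS9* and *CEACAM1* were not found by symbol. *CD80* and *CD86*, the ligands of CTLA4 and CD28 on antigen-presenting cells, had log2 fold changes of 0.12 (SE 0.30) and −0.16 (SE 0.22) at week 12. *TNFRSF14*, the partner of BTLA and CD160, was at −0.03 (SE 0.14) at both later time points. The TIGIT ligands *PVR* and *NECTIN2* were at −0.09 (SE 0.36) and −0.03 (SE 0.28) at week 12. *HMGB1*, a ligand of TIM-3, was at 0.12 (SE 0.18) at the same time point. *LGALS3*, which encodes galectin-3, a ligand of LAG3 held by monocytes, was higher in 5 of 5 animals at week 18 (306 ± 59.7 CPM pre-treatment and 370 ± 43.3 at week 18, SD, n = 5), as were 3.04% of all features, with a log2 fold change of 0.28 (SE 0.16) and, with the block, 0.29 (unadjusted p = 0.0264, adjusted p = 0.824 in edgeR). *NECTIN3* and *FGL1* were at 0 counts in at least 1 library with a median of 1 count and were not tested.

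The wider pathway was read from 5 lists of 76 genes outside the 10, with these counterparts among them. Of the 76, 72 were in the table and 65 were tested. edgeR called 0 of the 65 in each comparison, with and without the block. With the block, an unadjusted p under 0.05 was counted for 2 lower and 0 higher genes at week 12 (3.08% of the 65, against 4.69% of all features), for 7 lower and 3 higher at week 18 (15.4% against 5.85%), and for 6 lower and 0 higher between week 12 and week 18 (9.23% against 2.17%). The median log2 fold change of the 65 genes was 0.03 at week 12, −0.03 at week 18 and −0.01 between them.

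*CD40*, the receptor by which B cells and antigen-presenting cells receive T-cell help, was lower in 5 of 5 animals in both comparisons with pre-treatment (−0.52 and −0.70, SE 0.27 for both). Its means were 17.1 ± 5.85 CPM pre-treatment, 11.9 ± 4.05 at week 12 and 10.5 ± 2.48 at week 18 (n = 5, ± SD). With the block the edgeR adjusted p was 0.687 at week 12 and 0.309 at week 18, and B-cell markers were lower in the same animals. *SIRPA*, the receptor for CD47 on myeloid cells, and *PTPN6*, the phosphatase SHP-1 that acts below inhibitory receptors, were at −0.32 (SE 0.18) and −0.21 (SE 0.14) at week 12, each lower in 4 of 5 animals.

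*NR4A3* and *NR4A2* encode nuclear receptors that T-cell receptor signalling induces. *NR4A3* lay at 0.111 to 0.609 CPM at week 18 and at 1.07 to 2.37 CPM pre-treatment, with no overlap, but these values rest on 1 to 5 and 9 to 21 counts per library. On the log2 scale the fold change was −1.998 (SE 0.69, unadjusted p = 0.0103, adjusted p = 1 in edgeR). *NR4A2* was at −0.54 (SE 0.22), lower in 4 of 5 animals. From week 12 to week 18, *PIK3R1*, a regulatory subunit of PI3 kinase, was at −0.26 (SE 0.12), lower in 5 of 5 animals, *PRDM1*, which encodes BLIMP-1, at −0.52 (SE 0.25), lower in 4, and *NR4A3* at −1.47 (SE 0.70), lower in 3.

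Differences between the animals were tested in the same libraries. In a fit of animal and time point, 4 of the 10 checkpoint genes differed between animals (edgeR's F test, adjusted p under 0.05, 15 libraries). This share of 40% was near the 30.9% of all features, so differences between animals were not particular to these genes. *TIGIT* had the largest F (10.2, adjusted p = 0.002 in edgeR), with a mean over 3 libraries from 8.90 CPM in Z13076 to 17.8 in Z15228, a 1.94-fold range between the means of log2 CPM. *LAG3* was next (F = 9.09, adjusted p = 0.00333 in edgeR), from 3.70 CPM in Z15408 to 11.4 in Z15228, a 3.06-fold range. *CD274* ranged 2.01-fold, from 16.9 CPM in Z15228 to 33.7 in Z15303 (F = 6.26, adjusted p = 0.014 in edgeR). *PDCD1* ranged 2.15-fold, from 20.9 CPM in Z15303 to 46.0 in Z13076 (F = 7.61, adjusted p = 0.00673 in edgeR). Without Z15303 the adjusted p of *PDCD1* was 0.21, so that this call rested on 1 animal.

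The highest animal was not the same for these genes. Z15228 had the highest mean of *TIGIT* and *LAG3* and the lowest of *CD274*, while Z15303 had the highest mean of *CD274* and the lowest of *PDCD1*. *PDCD1LG2* and *CTLA4* did not pass this test (adjusted p = 0.408 and 0.505 in edgeR), and neither did *HAVCR2* (0.414), *ICOS* (0.198), *BTLA* (0.136) or *CD160* (0.0957). Among the counterparts, *CD80* passed (adjusted p = 0.0417 in edgeR), from 5.35 CPM in Z15228 to 11.7 in Z15408.

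**Figure D4:**
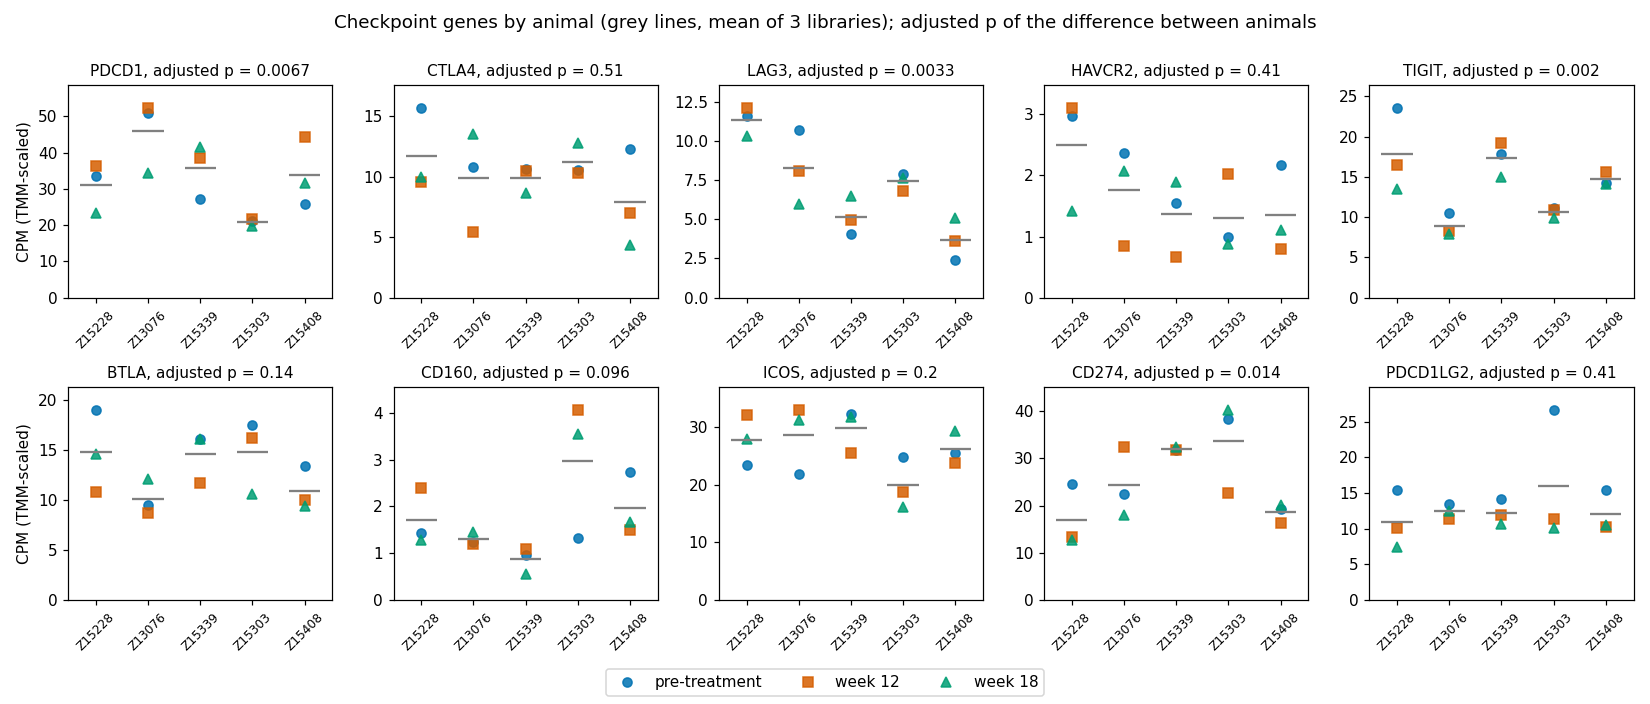
TMM-scaled CPM of each checkpoint gene (vertical axis, starting at 0) by animal (horizontal axis), with symbols for the 3 time points, grey lines at the mean of 3 libraries and edgeR's adjusted p for the difference between animals in each title. The grey lines run from 3.70 to 11.4 CPM for *LAG3* and from 8.90 to 17.8 CPM for *TIGIT*, and within 1 animal *TIGIT* ranges from 13.4 to 23.6 CPM in Z15228.

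As a description, the features whose log2 CPM ran most like each checkpoint gene over the 15 libraries were taken from the 10773 tested features with a symbol. The 15 libraries come from 5 animals and differ in depth, so these values of Pearson's r carry no test. *LAG3* ran with *SHISA5* (r = 0.94), *SLAMF7* (0.93) and *COMTD1* (0.91), and *PDCD1* with *KLRD1*, *OSBPL7* and *APBB2* (0.88 each). *TIGIT* ran with the immunoglobulin segments *IGLV11.55* (0.91) and *IGHV3.72* (0.89), which B cells and plasma cells transcribe, and with *CLNK* (0.88). *BTLA* ran with *FCRLA* (0.85), *MTFMT* (0.85) and *TCF4* (0.84), and *PDCD1LG2* with *STK24* (0.82), *SP100* (0.77) and *PPP1CC* (0.77). For *CD274* the first was *TMEM155* (0.91), for *ICOS* *TRAPPC8* (0.89), for *CTLA4* *FOXH1* (0.84), for *HAVCR2* *GPR157* (0.77) and for *CD160* *TSC1* (0.96). After each animal's mean was subtracted, *PDCD1LG2* ran with *TMCC3* (0.94), *YOD1* (0.93) and *SAR1B* (0.90), and *PDCD1* with *BSPRY* (0.96).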

How the data were processed

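The authors made cDNA from total PBMC RNA with the SMART-Seq v4 kit and libraries with Nextera XT, aligned the reads with STAR 2.7.9a to the *M. nemestrina* Ensembl release 95 genome, and deposited the raw counts per gene from STAR's quantMode GeneCounts. The deposited values were checked to be whole numbers, and replicates were not pooled. The libraries do not mark strand, so overlapping and antisense genes cannot be told apart.

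Counts were analysed in R 4.3.3 with edgeR 4.0.16 (TMM, filterByExpr with a minimum count of 10, quasi-likelihood F test, the time point as sole term, all 15 libraries). P-values were adjusted by the Benjamini-Hochberg method over the 12880 features that passed the filter. The alternatives were DESeq2 1.42.0, limma-voom (limma 3.58.1), other scalings and filters, the animal as a block, leaving out each animal, and the animals grouped by shared dates. Log2 CPM used a prior count of 2. The difference between animals was the joint F test of the animal terms, and receptor to ligand ratios were compared within animals by exact two-sided sign flips. The replicates are separate animals, and the subject label pairs the time points. Deviations from the time point means correlated at 0.551 on average over the 15 pairs of libraries from the same animal (0.351 to 0.683). Over the 60 pairs of different animals and time points the mean was −0.137. Its negative sign largely follows from the subtraction of the time point means and is no separate evidence of the pairing. The fit was tested on simulated data.

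The 10 genes, the gene lists and the tests were chosen with earlier results of these data known. All 10 genes and the 9 counterparts found by symbol were named with their values. Of the other lists, the 3 genes with the smallest p in each comparison were named, and for likeness the features with the highest r. For genes under about 30 counts per library, counting error adds to the spread of the animals, and its part was not tested. Gene lengths, coordinates and sequences were not used here.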

Additional observations from a re-analysis of the deposited data

Results flagged for a closer look

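In each of the 30 sets of 5 libraries (10 genes at 3 time points) the highest and the lowest library were compared with their nearest neighbour by Dixon's ratio, with a critical value of 0.71. Chance gives about 1 in 20 such sets, and 3 were found. *PDCD1LG2* before treatment was at 26.6 CPM in Z15303, with the next library at 15.4 and the lowest at 13.4, a ratio of 0.85. *ICOS* at week 18 was at 16.1 CPM in Z15303, with the next library at 27.9 and the highest at 31.6, a ratio of 0.761. *CD160* before treatment was at 2.73 CPM in Z15408, with the next at 1.44 and the lowest at 0.954, a ratio of 0.729, at 8 to 24 counts per library. Without Z15303, the log2 fold change of *PDCD1LG2* was −0.41 at week 12 and −0.49 at week 18, against −0.62 and −0.72 with all 5 animals. Z15303 also had the lowest total counts at week 12 and week 18. Its library before treatment, which gave the flagged value of *PDCD1LG2*, held 9232914 counts, above the median of 8871860. The part of depth in these values was not tested.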

How the results depend on the processing

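No checkpoint gene passed an adjusted p of 0.05 in a comparison of time points under the alternatives run (other scalings, other filters, DESeq2, limma-voom, the animal as a block, leaving out each animal, and the animals split by dates). The replicate block changed no call. Of 630 alternative values of the fold changes, 554 kept their direction and 76 did not, and those of *PDCD1LG2*, *PDCD1*, *CTLA4*, *BTLA*, *HAVCR2* and *CD274* at week 12 and of *PDCD1LG2*, *CTLA4*, *BTLA*, *HAVCR2* and *TIGIT* at week 18 kept it in all. For *PDCD1LG2* the values lay between −0.73 and −0.41 at week 12 and between −0.88 and −0.49 at week 18. Its smallest edgeR adjusted p at week 12 was 0.141, in the 3 animals that share dates with the block, a fit chosen after seeing the data. At week 18 it was 0.0944, with the block and without Z13076, the animal with the smallest difference. With the block and all 5 animals, the edgeR adjusted p was 0.568 at week 12 and 0.26 at week 18. The cause of each change of sign below was not tested.

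The log2 fold change of *LAG3* at week 12, at week 18 and between them turned positive with the replicate block (0.0027, 0.082 and 0.0797), with DESeq2 and the block (0.011, 0.096 and 0.085) and with limma-voom (0.0304, 0.098 and 0.067), where *CD160* at week 18 was −0.065. In the 3 animals that share dates, without and with the block (the latter chosen after seeing the data), *LAG3* was 0.099 and 0.18 at week 12, 0.43 and 0.54 at week 18, and 0.33 and 0.35 between them. In these animals *TIGIT* at week 12 was 0.10 and 0.0898, *ICOS* −0.26 and −0.27 at week 12 and −0.076 and −0.11 at week 18, *PDCD1* at week 18 0.34 and 0.29, *CD274* at week 18 0.063 and 0.067, and between week 12 and week 18 *CTLA4* −0.12 and −0.18 and *BTLA* −0.058 and −0.045. In the other 2 animals with the block, also chosen after seeing the data, week 18 vs. week 12 gave −0.072 for *HAVCR2*, −0.14 for *ICOS* and −0.51 for *CD274*.

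When 1 animal was left out, without or with the block, the values of these genes crossed 0. The ranges at week 12 were −0.025 to 0.78 for *CD160*, −0.095 to 0.18 for *ICOS*, −0.099 to 0.13 for *LAG3* and −0.20 to 0.024 for *TIGIT*. At week 18 they were −0.35 to 0.42 for *CD160*, −0.035 to 0.24 for *ICOS*, −0.17 to 0.33 for *LAG3* and −0.27 to 0.11 for *PDCD1*. Between week 12 and week 18 they were −0.17 to 0.32 for *CD274*, −0.12 to 0.34 for *CTLA4*, −0.29 to 0.55 for *HAVCR2*, −0.041 to 0.10 for *ICOS* and −0.081 to 0.19 for *LAG3*. Ranges that kept their sign but moved from the value of all 5 animals by over 1.5 times were, at week 12, 0.16 to 0.39 for *PDCD1*, −0.82 to −0.23 for *HAVCR2* and −0.46 to −0.053 for *CD274*, and at week 18, −0.53 to −0.077 for *CTLA4*, −0.62 to −0.22 for *HAVCR2*, −0.44 to −0.18 for *TIGIT*, −0.38 to −0.13 for *BTLA* and −0.27 to −0.0078 for *CD274*. Between week 12 and week 18 they were 0.042 to 0.34 for *BTLA*, −0.42 to −0.11 for *CD160* and −0.17 to −0.028 for *PDCD1LG2*. The ratio changes, for which no sign-flip p could pass with 5 animals or fewer, ran from −0.22 to 0.11 for *TIGIT* to *NECTIN2* and from −0.16 to 0.11 for *TIGIT* to *PVR* at week 12, and from −0.28 to 0.24 for *CD160* to *TNFRSF14* at week 18. The number of checkpoint genes that differed between animals was 3 to 4 over the alternatives. The adjusted p of *PDCD1* in edgeR's test of animals ran from 0.00498 to 0.21, the highest without Z15303, while *TIGIT*, *LAG3* and *CD274* passed in all. *HAVCR2* and *CD160* rest on 5 to 30 counts per library, and the part of depth in their spread was not tested.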
